A study of Rattus norvegicus with 12 samples.

Results

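Collagen chain genes encode the polypeptides that wind together into collagen, the main fibre-forming and sheet-forming protein of muscle connective tissue. They were selected as the rows of the gene table whose symbol reads Col, a number, a, and a number, with a mean of at least 0.5 CPM (a gene's count scaled by its library's total) in at least 1 of the 4 groups. The selection gave 39 genes of 30206, and all 39 were among the 14599 genes that passed the low-count filter of the test. A further 5 rows of the same name pattern, Col2a1, Col6a4, Col9a1, Col9a2 and Col10a1, stayed below that level. The highest group mean among these was 0.374 CPM, for Col2a1. By class, the 39 genes comprised 10 fibrillar chains, 6 basement membrane (type IV) chains, 7 FACIT chains, 5 type VI chains, 2 multiplexins, 2 short chains, 4 transmembrane chains and 3 others.

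The pubocaudalis, a skeletal muscle of the rat pelvic floor, was profiled by RNA sequencing after simulated birth injury (SBI), in which a balloon was distended in the vagina of late-pregnant Sprague-Dawley rats. The rats were 3-month-old females, and all 4 groups were pregnant, injured and then delivered. In the 1wk SBI and 3wk SBI groups the pups were taken away after delivery, so the dams did not lactate. In the 1wk SBI + Lac and 3wk SBI + Lac groups the pups were kept. Muscle was collected 1 or 3 weeks after injury, and at 3 weeks the lactating dams had reached weaning. Each group held 6 rats, and each library pooled RNA from 2 of them, giving 3 libraries per group and 12 in all. No uninjured muscle was sequenced, so the data compare injured muscles with each other. Keeping or removing pups sets nursing, hormones and feeding together, and these cannot be told apart here.

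Collagen chains assemble in threes into a triple helix. Fibrillar collagens form the rope-like fibrils of the endomysium, perimysium and epimysium, with types I and III predominant in muscle and types V and XI starting and limiting fibril width. Type IV forms the network of the basement membrane around each myofiber and capillary, type VI forms beaded filaments that link that membrane to the surrounding matrix, and FACIT collagens (fibril-associated collagens with interrupted triple helices) decorate fibril surfaces. Multiplexins, types XV and XVIII, sit at the outer face of basement membranes.

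Library totals ranged from 10082734 to 75634391 counts, with 3wk SBI replicate 3 the deepest. Levels of single genes are given as CPM after TMM scaling (a correction for differences in library composition). Sums over marker lists are CPM without that scaling. The TMM factors were 1.21, 1.29 and 1.04 in 1wk SBI and 0.891, 0.876 and 0.850 in 3wk SBI + Lac, so the 2 scales differ by group. Tests are edgeR's quasi-likelihood tests with p-values adjusted over all 14599 genes. A gene was called when its adjusted p was under 0.05 and its log2 fold change was beyond 1 in either direction. Counts were not divided by transcript length, so levels are compared between groups for one gene and not between genes. The 9 measured skeletal myofiber markers summed to between 117943 and 190782 CPM in every library, so the defining markers of the labelled tissue were present. The 3-week values were deposited with decimals and the 1-week values as whole numbers, so a difference between times cannot be told apart from a difference in how the counts were made.

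Collagen chains together took a smaller part of the RNA in lactating rats at 3 weeks. Their share of all counts was 1.66%, 1.40% and 0.972% in the 3 pools of 1wk SBI. It was 0.554%, 0.609% and 1.03% in 1wk SBI + Lac, so the highest lactating pool exceeded the lowest non-lactating pool. The 3wk SBI pools had 0.439%, 0.429% and 1.16%, and the 3wk SBI + Lac pools had 0.344%, 0.312% and 0.239%, all below the 3wk SBI pools. One pool, 3wk SBI replicate 3 (1.16%), stood well above its partners and was the highest of its group for 26 of the 39 chains. Fewer collagen-making cells and less collagen RNA per cell cannot be told apart in bulk muscle.

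**Figure D1:**
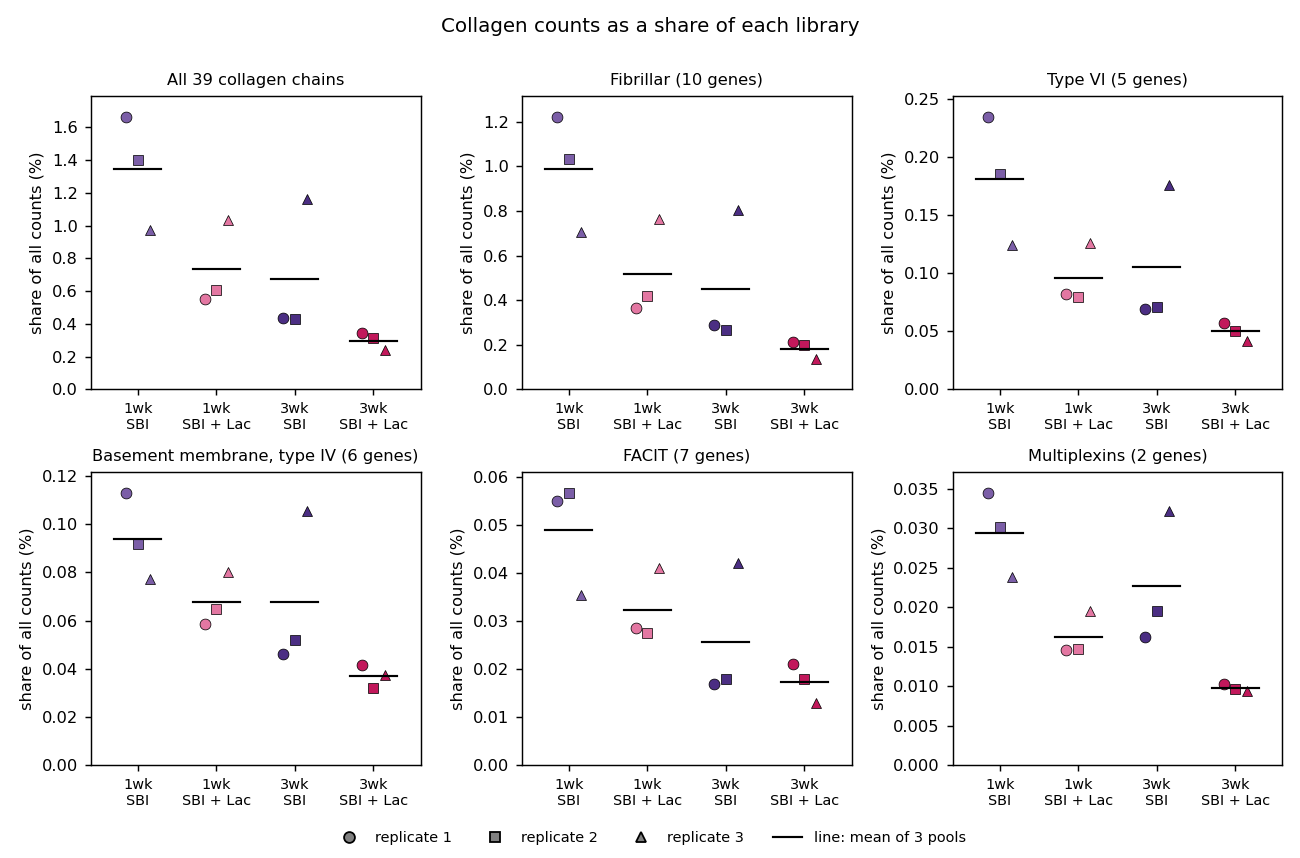
Share of all counts (%) assigned to all 39 collagen chain genes and to 5 of their classes in each library, with the 4 groups along the x axis, 1 point per pool of 2 rats and a line at the mean of 3 pools. At 3 weeks the lactating pools lie at 0.239% to 0.344% for all chains, under the non-lactating pools, of which replicate 3 stands at 1.16%.

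The fibrillar chains made up most of these counts, 73.3% ± 0.42 (SD, n = 3) of collagen counts in 1wk SBI and 60.7% ± 3.6 (SD, n = 3) in 3wk SBI + Lac. At 1 week 8 of the 10 had a negative log2 fold change with lactation and at 3 weeks 9 of 10 did, with medians of -0.65 and -0.98. The median over all genes tested was -0.0038 at 1 week and -0.019 at 3 weeks, and 50.5% and 52.3% of all genes had a negative value. One fibrillar chain, Col11a1 at 1 week, was called.

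Col1a1 encodes the main chain of type I collagen, the tensile fibre of the perimysium. Its level was 2771, 2055 and 1759 CPM in 1wk SBI and 729, 976 and 1739 CPM in 1wk SBI + Lac. In 3wk SBI it was 702, 580.1 and 1757 CPM, and in 3wk SBI + Lac 512, 472 and 259.8 CPM. The pools did not overlap at either time, although at 1 week the nearest pools differed little. The log2 fold change was -0.93 ± 0.45 (SE, n = 3 per group; edgeR adjusted p = 0.289) at 1 week and -1.29 ± 0.46 (edgeR adjusted p = 0.141) at 3 weeks, so neither passed the test. As 3wk SBI replicate 3 was the highest pool of its group, leaving it out could not make the groups overlap and is no test of the gap.

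Col3a1, the chain of the more pliable type III collagen, stood at 4729, 3849.5 and 3337.5 CPM in 1wk SBI and at 2072, 2396 and 3797 CPM in 1wk SBI + Lac, an overlap. At 3 weeks it was 1621, 1505 and 3750.5 CPM without lactation and 1222, 1193 and 887 CPM with it, where the groups did not overlap. The 3-week log2 fold change was -1.06 ± 0.33 (SE; edgeR adjusted p = 0.0967). Its partner in abundance, Col1a2, had log2 fold changes of -0.91 and -1.11, and the type V chains Col5a1, Col5a2 and Col5a3 had -0.57, -0.45 and -0.74 at 1 week and -0.91, -0.64 and -1.09 at 3 weeks. None of these passed the edgeR test, while the study's own DESeq2 analysis reported Col5a3 as higher without lactation at 3 weeks. At that time the lactating pools of all 6 chains, types I, III and V, lay below every non-lactating pool. These were 6 of the 10 fibrillar chains, where 10.4% of all genes tested had such pools, and at 1 week the same held for 5 of the 10 against 14.1% of all genes.

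Col11a1 (ENSRNOG00000023148) fell with lactation at 1 week. The chain belongs to type XI collagen, which begins fibril assembly and is abundant in cartilage and in growing or repairing matrix. Its level was 20.4, 14.3 and 12.3 CPM in 1wk SBI and 5.84, 4.75 and 6.02 CPM in 1wk SBI + Lac, so every lactating pool was below every non-lactating pool. The level was 2.83-fold lower, a log2 fold change of -1.50 ± 0.27 (SE, n = 3 per group; edgeR adjusted p = 0.0296). At 3 weeks it was 5.47, 3.47 and 8.57 CPM without lactation and 2.54, 2.67 and 3.52 CPM with it, which overlapped, and the log2 fold change of -1.12 ± 0.30 was not called (edgeR adjusted p = 0.0615). The 1-week call was kept in 1 of the 6 fits that left out a library, that without 1wk SBI replicate 3. Without 1wk SBI replicate 1 or 2, or without 1wk SBI + Lac replicate 1, 2 or 3, the edgeR adjusted p was 0.140, 0.105, 0.134, 0.162 and 0.0684, with log2 fold changes between -1.57 and -1.26. With the replicate number as a block it was 0.0504. Markers of cartilage and bone, tissues in which type XI collagen is abundant, were read beside this result. Without TMM scaling, the 10 markers summed to 10.8 to 20.5 CPM in 1wk SBI and 7.42 to 9.64 CPM in 1wk SBI + Lac, which did not overlap. They summed to 8.03 to 9.85 CPM in 3wk SBI and 5.89 to 8.75 CPM in 3wk SBI + Lac, which did. Of the 5 that passed the low-count filter, 4 had negative log2 fold changes at 1 week, with a median of -1.44, and the 3-week median was -0.30. Alpl went the other way, with 0.35 ± 0.23 (edgeR adjusted p = 0.424) at 1 week and 0.87 ± 0.25 (edgeR adjusted p = 0.0757) at 3 weeks. edgeR called none of the 5. At an unadjusted edgeR p under 0.05 there were 4 at 1 week and 2 at 3 weeks, against 2762 and 3082 of the 14599 genes tested. DESeq2 called Sox9 and Runx2, which encode transcription factors of cartilage and of bone, lower at 1 week. Matn1, a cartilage matrix gene, had 0 counts in all libraries. Their part in the Col11a1 difference was not tested.

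**Figure D2:**
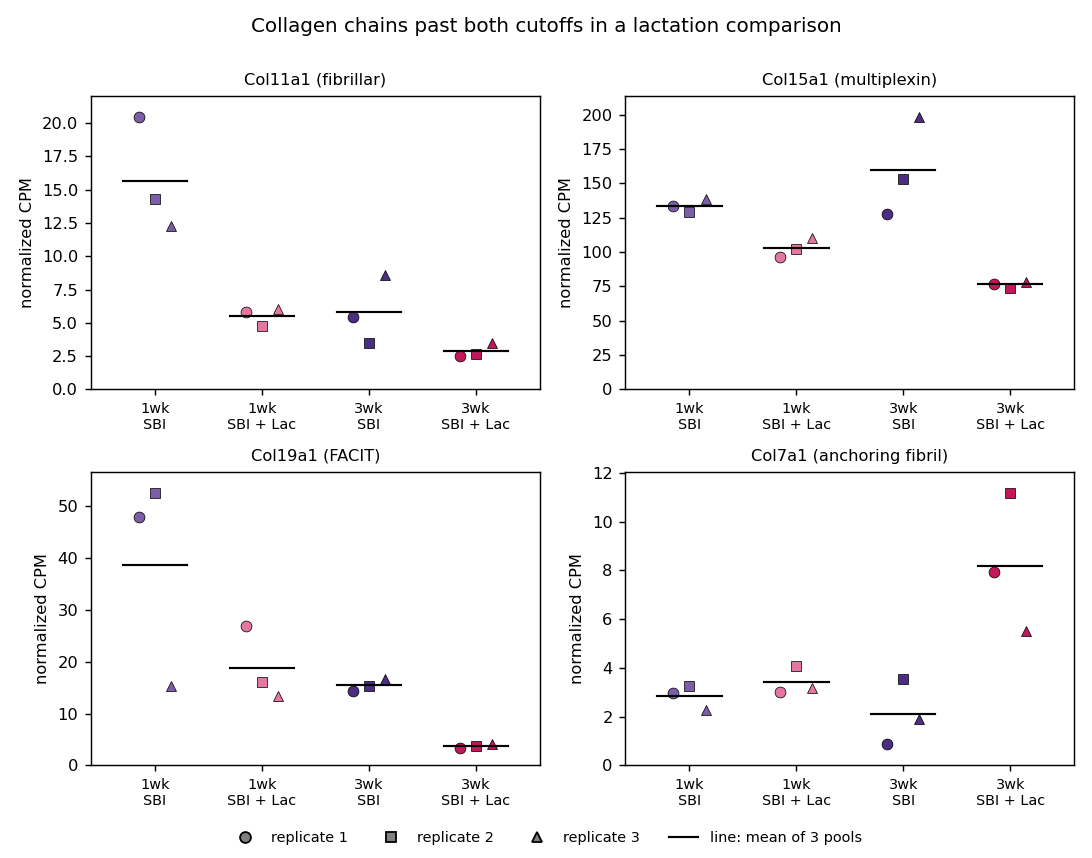
Normalized CPM of Col11a1, Col15a1, Col19a1 and Col7a1, the 4 chains called in a lactation comparison, by group on the x axis, with 1 point per pool and a line at the mean of 3 pools. Col15a1 and Col19a1 lie lower and Col7a1 lies higher in all 3 pools of 3wk SBI + Lac than in any pool of 3wk SBI.

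The 5 type VI chains all had negative log2 fold changes at both times, with medians of -0.71 and -0.87, and at 3 weeks all 5 had lactating pools below every non-lactating pool, against 10.4% of all genes. At 1 week 2 of the 5 did, against 14.1% of all genes. None was called by edgeR. At an unadjusted edgeR p under 0.05 there were 3 of the 5 at 1 week and all 5 at 3 weeks, against 2762 and 3082 of the 14599 genes tested. DESeq2 on all 12 libraries called Col6a5 lower at both times. Col6a1, the obligate first chain of the type VI monomer, was 744, 584 and 463 CPM in 1wk SBI and 321, 321 and 452 CPM in 1wk SBI + Lac. It was 288, 292 and 601 CPM in 3wk SBI and 243, 227 and 187 CPM in 3wk SBI + Lac. Both comparisons were free of overlap, with log2 fold changes of -0.71 ± 0.27 (edgeR adjusted p = 0.185) and -0.85 ± 0.27 (edgeR adjusted p = 0.108).

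Col6a2, the second chain, was 644, 481 and 404 CPM in 1wk SBI and 269, 274 and 402 CPM in 1wk SBI + Lac. At 3 weeks it was 260, 257 and 547 CPM without lactation and 222, 195 and 166 CPM with it, giving a log2 fold change of -0.87 ± 0.29 (SE; edgeR adjusted p = 0.114). The groups did not overlap, although at 1 week the nearest pools nearly met. Col6a6, a chain that can stand in for the third chain in skeletal muscle, was 29.3, 17.1 and 29.9 CPM in 1wk SBI and 8.89, 15.1 and 20.8 CPM in 1wk SBI + Lac, an overlap. It was 13.8, 25.0 and 38.6 CPM in 3wk SBI and 12.1, 9.63 and 12.0 CPM in 3wk SBI + Lac, without overlap. The log2 fold change was -1.26 ± 0.39 (edgeR adjusted p = 0.109). Col6a5, a chain of the same kind, had the class's largest 3-week log2 fold change, -2.27 ± 0.71 (edgeR adjusted p = 0.0991), but its counts were 7, 44 and 203 in 3wk SBI and 4, 40 and 4 in 3wk SBI + Lac. At 1 week its counts were 265, 444 and 53 without lactation and 48, 29 and 38 with it. On the normalized scale it was 4.25, 7.49 and 1.24 CPM in 1wk SBI, 1.57, 0.983 and 0.908 CPM in 1wk SBI + Lac, 0.751, 2.72 and 2.44 CPM in 3wk SBI, and 0.130, 0.650 and 0.440 CPM in 3wk SBI + Lac. Its groups overlapped at 1 week and did not at 3 weeks.

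The basement membrane chains did not share a direction at 1 week, when 2 of the 6 log2 fold changes were negative and 4 positive, with a median of 0.27. At 3 weeks 5 of the 6 were negative, with a median of -0.24. Type IV collagen is built from 6 genes that lie head to head in pairs, and 2 of those pairs, Col4a1 with Col4a2 and Col4a3 with Col4a4, are adjacent protein-coding genes on opposite strands in RefSeq. The promoter windows, from 250 bases before to 50 after each gene's start, are shown because the 2 windows of each pair share bases. They are credited to RefSeq, build GRCr8, and capitals mark the bases that the 2 windows of a pair share, 176 for Col4a1 and Col4a2 and 88 for Col4a3 and Col4a4. The windows are chr16:84885347-84885646 (+) for Col4a1, chr16:84885471-84885770 (-) for Col4a2, chr9:91323740-91324039 (+) for Col4a3 and chr9:91323528-91323827 (-) for Col4a4.
Col4a1: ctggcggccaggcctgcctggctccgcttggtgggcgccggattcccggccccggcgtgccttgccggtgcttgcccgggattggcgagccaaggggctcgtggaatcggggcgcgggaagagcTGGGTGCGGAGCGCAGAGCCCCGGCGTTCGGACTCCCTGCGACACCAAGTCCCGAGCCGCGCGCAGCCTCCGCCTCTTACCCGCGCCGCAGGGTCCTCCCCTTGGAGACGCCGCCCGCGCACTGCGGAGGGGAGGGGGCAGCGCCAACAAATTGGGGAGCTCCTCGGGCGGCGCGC
Col4a2: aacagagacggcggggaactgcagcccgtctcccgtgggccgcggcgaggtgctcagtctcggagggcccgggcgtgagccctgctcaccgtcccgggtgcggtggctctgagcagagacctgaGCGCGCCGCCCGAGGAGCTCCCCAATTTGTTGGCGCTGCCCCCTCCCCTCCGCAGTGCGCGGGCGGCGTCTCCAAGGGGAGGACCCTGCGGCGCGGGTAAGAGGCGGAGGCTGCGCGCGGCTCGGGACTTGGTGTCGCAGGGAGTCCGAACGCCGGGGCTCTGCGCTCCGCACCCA
Col4a3: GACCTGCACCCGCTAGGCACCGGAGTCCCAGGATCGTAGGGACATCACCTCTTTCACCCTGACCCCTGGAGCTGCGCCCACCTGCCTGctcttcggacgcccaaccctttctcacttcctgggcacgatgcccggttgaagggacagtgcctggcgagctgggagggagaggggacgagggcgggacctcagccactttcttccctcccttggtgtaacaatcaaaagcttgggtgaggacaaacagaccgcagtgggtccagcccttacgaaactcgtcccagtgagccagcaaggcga
Col4a4: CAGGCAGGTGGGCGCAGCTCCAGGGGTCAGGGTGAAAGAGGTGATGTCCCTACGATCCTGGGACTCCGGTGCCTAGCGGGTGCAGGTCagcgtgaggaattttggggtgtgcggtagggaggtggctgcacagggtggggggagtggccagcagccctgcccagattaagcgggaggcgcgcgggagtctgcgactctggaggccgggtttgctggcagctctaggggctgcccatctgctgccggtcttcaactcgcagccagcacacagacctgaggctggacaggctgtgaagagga

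Col4a1 and Col4a2 encode the chains of the common type IV network. Col4a1 was 568, 423 and 446 CPM in 1wk SBI and 349, 408 and 457 CPM in 1wk SBI + Lac. It was 288, 309 and 564 CPM in 3wk SBI and 261, 205 and 251 CPM in 3wk SBI + Lac. The pools overlapped at 1 week and did not at 3 weeks.

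The 3-week log2 fold change of Col4a1 was -0.70 ± 0.22 (edgeR adjusted p = 0.101). Col4a2 was 331, 248 and 262 CPM in 1wk SBI, 198, 233 and 258 CPM in 1wk SBI + Lac, 165, 183 and 339 CPM in 3wk SBI, and 159, 120 and 138 CPM in 3wk SBI + Lac. It overlapped at 1 week and not at 3 weeks, as Col4a1 did. Its 3-week log2 fold change was -0.73 ± 0.23 (edgeR adjusted p = 0.102). The ratio of Col4a2 to Col4a1 counts stayed between 0.550 and 0.606 in all 12 libraries, while Col4a1 itself ranged from 205 to 568 CPM.

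Col4a3 and Col4a4 encode chains of the specialised network best known from the kidney glomerulus. Their 1-week log2 fold changes were positive, 0.45 ± 0.24 (edgeR adjusted p = 0.320) and 0.60 ± 0.14 (edgeR adjusted p = 0.0590), with lactating pools above every non-lactating pool. Col4a4 was 10.0, 11.2 and 12.2 CPM in 1wk SBI and 16.3, 17.3 and 17.2 CPM in 1wk SBI + Lac. At 3 weeks their pools overlapped and the log2 fold changes were -0.30 ± 0.25 and -0.18 ± 0.14. Col4a5 stayed between 20.7 and 32.4 CPM in all libraries. Col4a6 was at most 1.31 CPM and had a standard error above 1 in both comparisons.

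Among the FACIT chains Col19a1 (ENSRNOG00000012759) fell with lactation at 3 weeks. Type XIX collagen is a minor basement-membrane-zone collagen first described in muscle tumour cells. Its level was 14.4, 15.4 and 16.7 CPM in 3wk SBI and 3.42, 3.84 and 4.18 CPM in 3wk SBI + Lac, 2 groups with a narrow spread and a wide gap. The level was 4.15-fold lower, a log2 fold change of -2.05 ± 0.46 (SE, n = 3 per group; edgeR adjusted p = 0.0468). At 1 week it was 48.0, 52.5 and 15.4 CPM without lactation and 26.9, 16.0 and 13.4 CPM with it, which overlapped, and the log2 fold change was -1.05 ± 0.39 (edgeR adjusted p = 0.187). The 3-week call was lost in all 6 fits that left out a library. The edgeR adjusted p was 0.0609, 0.0706 and 0.179 without 3wk SBI replicate 1, 2 and 3, and 0.156, 0.131 and 0.111 without 3wk SBI + Lac replicate 1, 2 and 3, with log2 fold changes from -2.10 to -1.98.

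The other FACIT chains did not pass the test in either comparison. Col12a1, a fibril-surface collagen of tendon and myotendinous junction, was 116, 107 and 82.3 CPM in 1wk SBI and 65.4, 57.8 and 76.0 CPM in 1wk SBI + Lac, without overlap. It was 24.8, 34.3 and 57.8 CPM in 3wk SBI and 54.7, 42.1 and 38.0 CPM in 3wk SBI + Lac, which overlapped. Its log2 fold change was -0.62 ± 0.25 at 1 week (edgeR adjusted p = 0.217) and 0.19 ± 0.26 at 3 weeks (edgeR adjusted p = 0.723). Col14a1, which binds fibrils through decorin, was 216, 208 and 184 CPM in 1wk SBI and 149, 174 and 239 CPM in 1wk SBI + Lac. It was 111, 105 and 249 CPM in 3wk SBI and 135, 121 and 87.4 CPM in 3wk SBI + Lac, so its groups overlapped at both times.

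Col22a1, a collagen of the myotendinous junction, was 0.769, 0.793 and 0.867 CPM in 1wk SBI and 1.54, 1.53 and 1.15 CPM in 1wk SBI + Lac, where the lactating pools were the higher. At 3 weeks it was 1.82, 1.05 and 4.73 CPM without lactation and 2.25, 1.76 and 1.10 CPM with it, an overlap. The 3-week log2 fold change was -0.62 ± 0.43, and without 3wk SBI replicate 3 it was 0.33. Col16a1, Col20a1 and Col9a3 had 3-week log2 fold changes of -0.49, -0.05 and 0.02.

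The multiplexin Col15a1 (ENSRNOG00000060381) fell with lactation at 3 weeks and had the lowest adjusted p of the 39 chains. Type XV collagen anchors the basement membranes of muscle fibres and capillaries to the fibrils outside. Its level was 128, 153 and 198 CPM in 3wk SBI and 76.9, 73.9 and 78.5 CPM in 3wk SBI + Lac. The groups were far apart, and the level was 2.10-fold lower, a log2 fold change of -1.07 ± 0.13 (SE, n = 3 per group; edgeR adjusted p = 0.00177). At 1 week it was 134, 129 and 138 CPM without lactation and 96.6, 102 and 110 CPM with it. These did not overlap either, but the log2 fold change was -0.38 ± 0.13 (edgeR adjusted p = 0.140). Without 3wk SBI replicate 3 the 3-week log2 fold change was -0.88, short of the fold cutoff, with an edgeR adjusted p of 0.00377.

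Col18a1, the other multiplexin and the source of endostatin, was 151, 104 and 91.6 CPM in 1wk SBI and 50.6, 53.5 and 76.3 CPM in 1wk SBI + Lac. It was 47.7, 57.1 and 93.8 CPM in 3wk SBI and 38.7, 36.4 and 31.9 CPM in 3wk SBI + Lac. The groups did not overlap at either time. The log2 fold changes were -0.94 ± 0.25 (edgeR adjusted p = 0.0912) and -0.90 ± 0.26 (edgeR adjusted p = 0.0859), and neither was called.

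Col7a1 (ENSRNOG00000020579) rose with lactation at 3 weeks, the only one of the 39 chains called higher in a lactation comparison. Type VII collagen forms anchoring fibrils, best known below the epidermis. Its level was 0.858, 3.53 and 1.88 CPM in 3wk SBI and 7.91, 11.2 and 5.50 CPM in 3wk SBI + Lac, without overlap. The level was 3.90-fold higher, a log2 fold change of 1.96 ± 0.35 (SE, n = 3 per group; edgeR adjusted p = 0.0125). At 1 week it was 2.98, 3.26 and 2.27 CPM without lactation and 3.02, 4.07 and 3.15 CPM with it, an overlap. Without 3wk SBI replicate 3, 3wk SBI + Lac replicate 1 or 3wk SBI + Lac replicate 2 the edgeR adjusted p was 0.0659, 0.0513 and 0.0614. Without TMM scaling, the 3 measured keratinocyte markers summed to at most 3.27 CPM in any library. On the same scale mammary epithelial markers summed to 0.280, 9.96 and 35.4 CPM, from lowest to highest, in 3wk SBI + Lac. In 3wk SBI they summed to at most 2.08 CPM. After TMM scaling, the milk protein gene Csn2 was 14.1, 4.05 and 0 CPM in replicates 1, 2 and 3 of 3wk SBI + Lac. Krt8, an epithelial keratin of the same list, had a 3-week log2 fold change of -1.34 ± 0.78 (edgeR adjusted p = 0.344). The part of these markers in the Col7a1 difference was not tested.

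The remaining chains were not called by edgeR in either lactation comparison. DESeq2 called more chains than edgeR did at each time, as counted in the closing section. The short chains of endothelial and vascular matrix, Col8a1 and Col8a2, overlapped at both times. Col8a1 was 25.0, 27.7 and 19.6 CPM in 1wk SBI and 22.9, 21.7 and 26.2 CPM in 1wk SBI + Lac, and 8.80, 7.86 and 12.6 CPM in 3wk SBI and 9.31, 9.69 and 5.83 CPM in 3wk SBI + Lac. Col8a2 was 4.65, 7.71 and 5.88 CPM in 1wk SBI and 6.72, 6.85 and 6.35 CPM in 1wk SBI + Lac, and 4.29, 6.32 and 4.15 CPM in 3wk SBI and 5.21, 5.77 and 6.05 CPM in 3wk SBI + Lac.

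The transmembrane chain Col23a1 was 2.00, 4.10 and 0.937 CPM in 1wk SBI and 0.885, 0.678 and 1.15 CPM in 1wk SBI + Lac, and 2.04, 1.55 and 2.09 CPM in 3wk SBI and 0.781, 0.781 and 0.440 CPM in 3wk SBI + Lac. The groups overlapped at 1 week and not at 3 weeks, where the log2 fold change was -1.41 ± 0.48 (edgeR adjusted p = 0.112). Col13a1, a collagen found at the neuromuscular junction, stayed at or below 1.11 CPM. It was 0.658 to 0.801 CPM in 1wk SBI and 0.393 to 0.597 CPM in 1wk SBI + Lac, without overlap, and the groups overlapped at 3 weeks. Col25a1, which muscle cells use in motor innervation, was 0.929, 1.52 and 0.679 CPM in 1wk SBI and 0.951, 0.610 and 0.454 CPM in 1wk SBI + Lac, and 1.07, 0.743 and 0.588 CPM in 3wk SBI and 1.17, 0.472 and 0.769 CPM in 3wk SBI + Lac, an overlap at both times. Col17a1, the hemidesmosome collagen, was 0.801, 0.793 and 0.633 CPM in 1wk SBI and 0.393, 0.339 and 0.549 CPM in 1wk SBI + Lac, where the lactating pools were the lower. At 3 weeks it was 0.429, 0.310 and 0.30 CPM without lactation and 0.195, 0.325 and 0.110 CPM with it, an overlap.

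Col26a1 was counted 111, 102 and 40 times in 1wk SBI and 11, 4 and 12 times in 1wk SBI + Lac. It was counted 1, 6 and 39 times in 3wk SBI and 4, 2 and 0 times in 3wk SBI + Lac. On the normalized scale it was 1.78, 1.72 and 0.937 CPM in 1wk SBI and 0.361, 0.136 and 0.287 CPM in 1wk SBI + Lac. It was 0.107, 0.372 and 0.468 CPM in 3wk SBI and 0.130, 0.0325 and 0 CPM in 3wk SBI + Lac. The groups did not overlap at 1 week, with a log2 fold change of -2.48 ± 0.57 (edgeR adjusted p = 0.0556). They overlapped at 3 weeks, where the log2 fold change of -2.50 ± 0.77 (edgeR adjusted p = 0.0902) was the lowest of the 39 chains. Col28a1, a von Willebrand factor A domain collagen of peripheral nerve, was 1.62, 1.35 and 1.45 CPM in 1wk SBI and 1.93, 3.05 and 1.94 CPM in 1wk SBI + Lac, where the lactating pools were the higher. At 3 weeks it was 0.858, 1.92 and 1.93 CPM without lactation and 1.53, 2.81 and 1.43 CPM with it, an overlap.

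**Figure D3:**
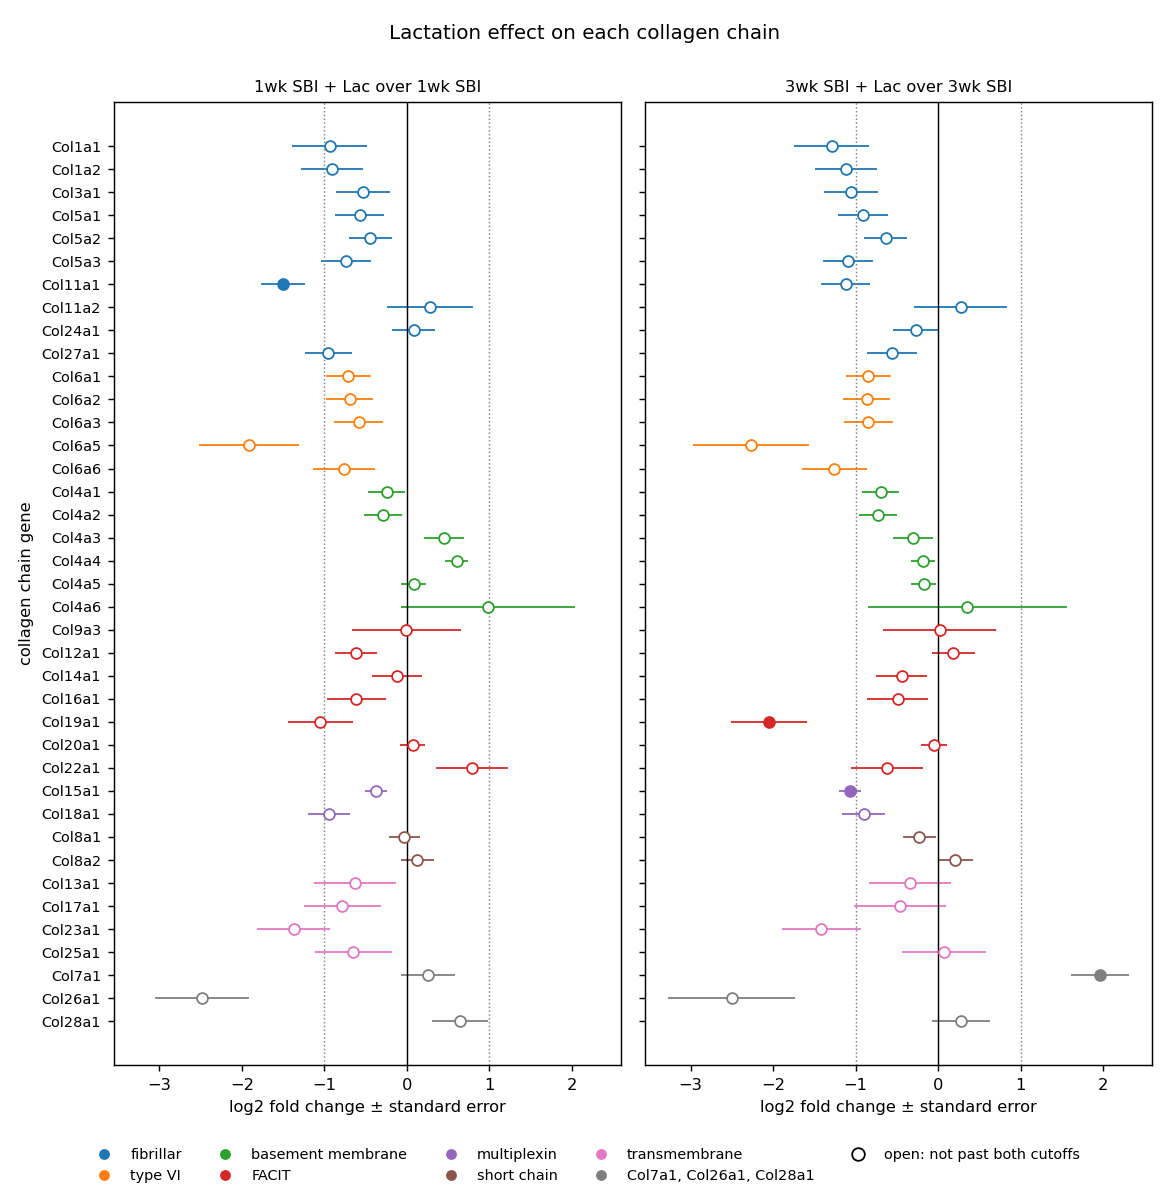
Log2 fold change of lactating over non-lactating muscle with its standard error (x axis) for each of the 39 chains (y axis, coloured by class) at 1 week (left) and 3 weeks (right), where filled points are called chains and dotted lines mark a log2 fold change of 1. Most points lie left of 0, 28 of 39 at 1 week and 31 of 39 at 3 weeks, and Col7a1 is the filled point on the right at 3 weeks.

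Counted over the whole family, 1 of 39 chains was called at 1 week, against 0.253% of all genes tested, and 3 of 39 were called at 3 weeks, against 0.74% of all genes. The median log2 fold change of the chains was -0.57 at 1 week and -0.62 at 3 weeks. Negative values numbered 28 of 39 at 1 week and 31 of 39 at 3 weeks, against 50.5% and 52.3% of all genes tested. They numbered 33 and 34 when library totals replaced TMM scaling, which also shifted the median of all genes by -0.25 and -0.20. Lactating pools lay below every non-lactating pool for 13 chains (33.3%) at 1 week, against 14.1% of all genes, and for 17 chains (43.6%) at 3 weeks, against 10.4% of all genes. They lay above every non-lactating pool for 4 chains at 1 week, Col4a3, Col4a4, Col22a1 and Col28a1 (10.3%), against 14.3% of all genes. At 3 weeks this held for Col7a1 alone (2.56%), against 11.9% of all genes. The 39 chains share their libraries and are not independent of each other. Without 3wk SBI replicate 3, no chain was called at 3 weeks, the median was -0.33 and 29 of 39 log2 fold changes were negative. Without 3wk SBI + Lac replicate 1 or 2, Col15a1 alone was called. At 1 week, 7 chains were called without 1wk SBI replicate 3 and 0 without any one of the other libraries compared.

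The size of the lactation effect was not shown to differ between the times. In the interaction test 0 of 39 chains were called by edgeR, against 0.00685% of all genes, and DESeq2 on all 12 libraries called 0 as well. At an unadjusted edgeR p under 0.05 there were 6 chains of 39, against 4.42% of all genes. These 6 were Col4a3, Col4a4, Col7a1, Col12a1, Col15a1 and Col22a1, all with an edgeR adjusted p of 0.788 or more. Their interaction log2 differences, 3 weeks minus 1 week, were -0.76 for Col4a3, -0.78 for Col4a4, 1.70 for Col7a1, 0.80 for Col12a1, -0.69 for Col15a1 and -1.41 for Col22a1.

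**Figure D4:**
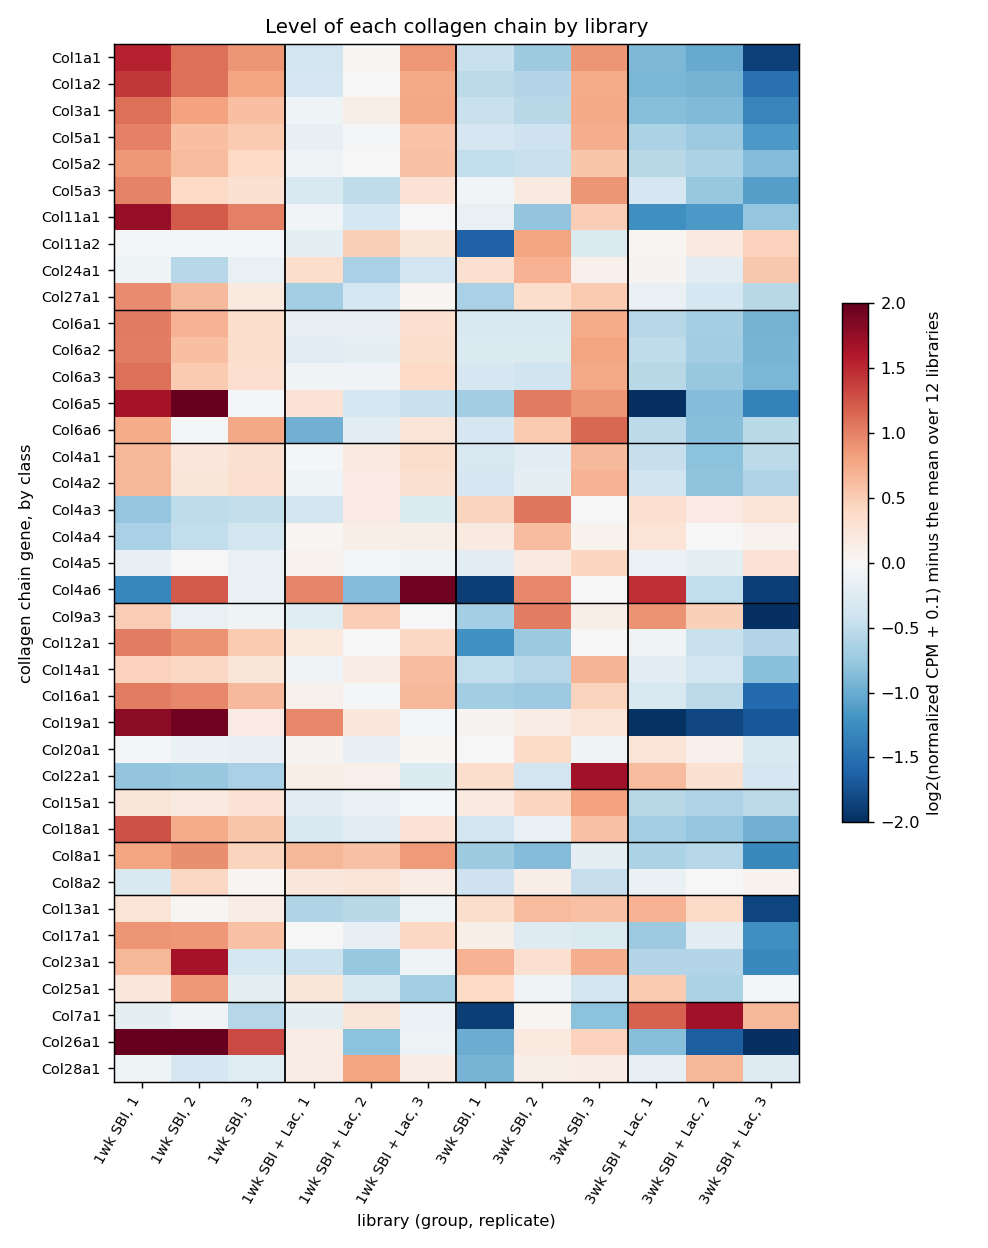
Level of each of the 39 chains (rows, by class) in each of the 12 libraries (columns, by group and replicate), as log2(normalized CPM + 0.1) minus the gene's mean over the libraries, with the colour scale ending at 2 in both directions. The 1wk SBI column of replicate 1 is the highest of all libraries for 17 chains, and that of 3wk SBI + Lac replicate 3 is the lowest for 19.

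Ordered by group mean, 24 of the 39 chains were highest in 1wk SBI and 24 were lowest in 3wk SBI + Lac. From 1 to 3 weeks without lactation 5 chains were called, against 1.46% of all genes. Col8a1, Col11a1 and Col12a1 fell, with log2 fold changes of -1.27, -1.36 and -1.36, and Col4a3 and Col22a1 rose, with 1.15 and 1.74. With lactation 2 chains were called, against 0.774% of all genes, namely Col8a1 at -1.46 and Col19a1 at -2.32. Without 3wk SBI replicate 3 the count without lactation was 14, without 1wk SBI replicate 1 it was 1, and without 1wk SBI replicate 2 or 3wk SBI replicate 2 it was 2. With lactation, Col8a1 alone was called in each of the 6 fits that left out a library. The way the counts were made at each time moved with these comparisons, and its part in them was not tested.

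Ratios of partner chains were taken within each library, which asks whether chains that share a molecule or a fibril moved together. Col6a2 to Col6a1 counts had a geometric mean ratio of 0.854 without and 0.860 with lactation at 1 week, and of 0.898 without and 0.887 with lactation at 3 weeks. Col3a1 to Col1a1, which belong to different collagen types, had a ratio of 1.82 without lactation and 2.48 with it at 1 week. The ranges, 1.71 to 1.90 and 2.18 to 2.84, did not overlap. At 3 weeks that ratio was 2.34 without lactation and 2.74 with it, with overlapping ranges. Of 12 ratio comparisons, 4 reached the smallest p that an exact two-sided permutation test of 3 against 3 allows, 0.1, with an adjusted p of 0.3. The others in that group of 4 were Col4a2 to Col4a1 at 1 week (0.585 and 0.568), Col6a3 to Col6a1 at 1 week (0.645 and 0.709) and Col5a2 to Col5a1 at 3 weeks (1.25 and 1.51).

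**Figure D5:**
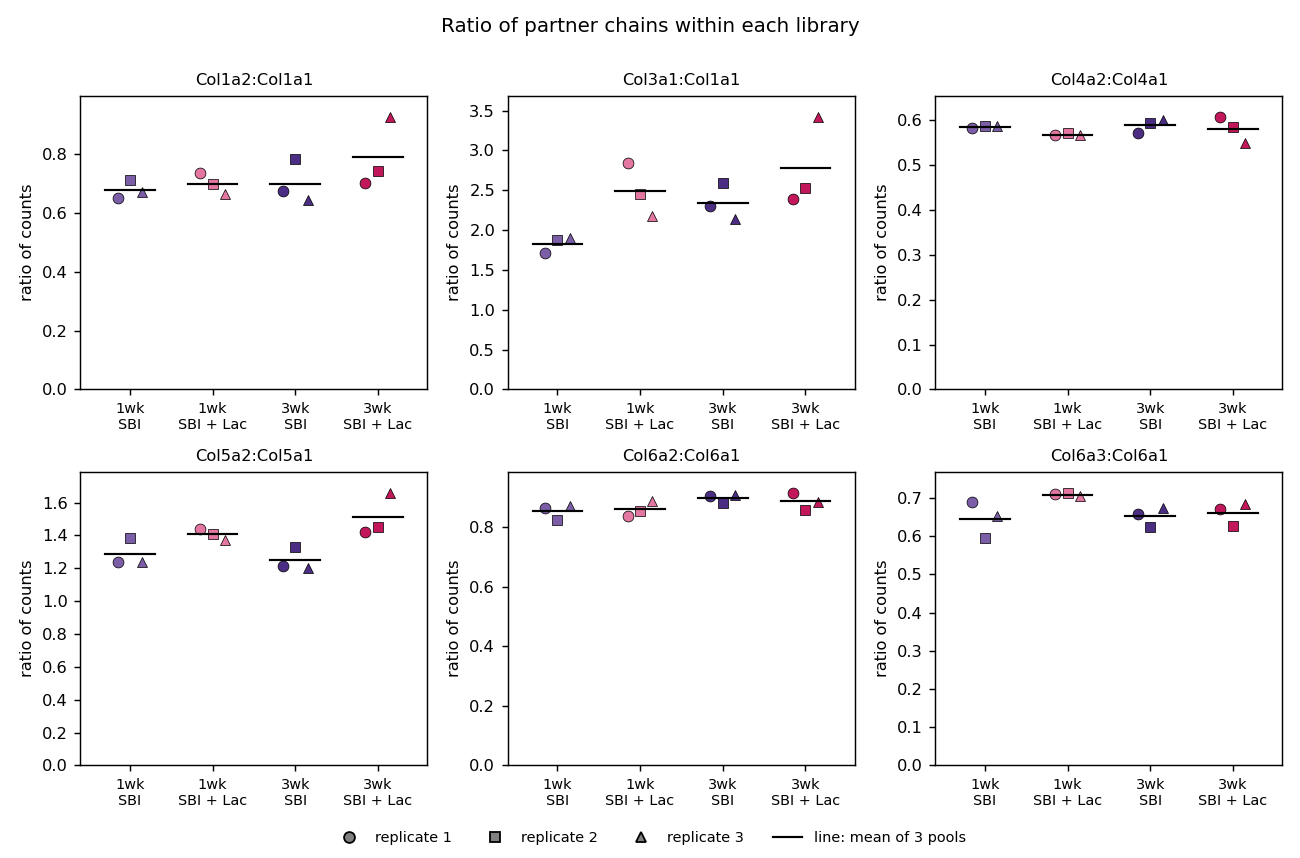
Ratio of counts of 6 pairs of chains within each library (y axis, from 0) by group (x axis), with 1 point per pool and a line at the arithmetic mean of 3 pools. Col4a2:Col4a1 stays between 0.550 and 0.606 in all 12 libraries, while Col3a1:Col1a1 lies between 1.71 and 1.90 for the 1wk SBI pools and between 2.18 and 2.84 for the lactating pools of that week.

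A promoter window was found in RefSeq for 31 of the 39 chains. The letters GGGCGG, read on either strand and the core of a GC box, were in the windows of 19 of these 31 (61.3%) and in 36.0% of the 27457 genes with a window. CCAAT, on either strand, was in 9 of 31 (29.0%) and in 39.6% of all genes, and TATAAA, on either strand, in 3 of 31 (9.7%) and in 15.3% of all genes. None of these motifs contains another. The windows of the 4 chains called in a lactation comparison are shown, with these motifs in capitals on build GRCr8. They are chr2:204508886-204509185 (+) for Col11a1, chr5:66297296-66297595 (+) for Col15a1, chr9:34518208-34518507 (-) for Col19a1 and chr8:118483114-118483413 (+) for Col7a1. Col11a1 held CCAAT and GGGCGG, Col7a1 held GGGCGG, and the windows of Col15a1 and Col19a1 held none of these letters.
Col11a1: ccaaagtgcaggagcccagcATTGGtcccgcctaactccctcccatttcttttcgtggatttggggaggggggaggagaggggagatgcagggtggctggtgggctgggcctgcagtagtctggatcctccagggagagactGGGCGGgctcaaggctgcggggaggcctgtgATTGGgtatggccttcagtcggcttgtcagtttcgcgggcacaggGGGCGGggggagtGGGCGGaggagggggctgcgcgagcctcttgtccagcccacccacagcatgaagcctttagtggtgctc
Col15a1: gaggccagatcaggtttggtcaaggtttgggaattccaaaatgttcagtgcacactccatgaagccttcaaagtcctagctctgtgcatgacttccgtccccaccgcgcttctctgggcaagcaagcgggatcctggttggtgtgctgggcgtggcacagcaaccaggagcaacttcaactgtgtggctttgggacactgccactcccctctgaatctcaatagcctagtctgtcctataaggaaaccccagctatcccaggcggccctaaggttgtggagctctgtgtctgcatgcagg
Col19a1: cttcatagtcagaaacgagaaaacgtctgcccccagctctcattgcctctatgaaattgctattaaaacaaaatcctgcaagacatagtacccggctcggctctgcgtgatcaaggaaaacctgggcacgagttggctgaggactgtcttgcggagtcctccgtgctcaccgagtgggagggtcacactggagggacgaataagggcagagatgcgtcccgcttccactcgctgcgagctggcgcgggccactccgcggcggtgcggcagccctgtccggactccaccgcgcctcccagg
Col7a1: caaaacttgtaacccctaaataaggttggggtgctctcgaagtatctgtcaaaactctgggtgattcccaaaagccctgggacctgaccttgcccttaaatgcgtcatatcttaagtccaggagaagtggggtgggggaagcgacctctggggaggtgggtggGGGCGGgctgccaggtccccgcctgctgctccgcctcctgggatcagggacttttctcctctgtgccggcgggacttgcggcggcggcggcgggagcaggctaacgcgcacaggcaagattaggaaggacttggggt

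Genes that process, bind or sense collagen were read from 5 lists. None of 21 hydroxylation, folding and export genes was called in either lactation comparison by edgeR or by DESeq2 on all 12 libraries, with medians of -0.15 at 1 week and -0.20 at 3 weeks. At an unadjusted edgeR p under 0.05 there were 6 of the 21 at 1 week and 7 at 3 weeks, against 2762 and 3082 of the 14599 genes tested. Of 11 propeptide-removal and cross-linking genes, Adamts14, a procollagen N-proteinase, was called lower at 3 weeks, with a log2 fold change of -1.45 ± 0.34 (edgeR adjusted p = 0.0408), and none was called by edgeR at 1 week, when 4 had an unadjusted p under 0.05. DESeq2 called Adamts14 lower at both times, and over all genes with an adjusted p it called 1.35% at 1 week and 1.78% at 3 weeks. In that list 10 of 11 log2 fold changes were negative at 1 week and 11 of 11 at 3 weeks, with medians of -0.34 and -0.67. None of 8 fibril-binding proteoglycans, 7 collagen receptors and 10 basement membrane partners was called by edgeR or DESeq2. Their 3-week medians were -0.44, -0.25 and -0.35. At an unadjusted edgeR p under 0.05 there were 0, 1 and 1 of them at 1 week and 2, 2 and 7 at 3 weeks.

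The 8 markers of myofibroblasts and activated fibroblasts had medians of -0.84 at 1 week and -1.10 at 3 weeks, and 2 of them, Adam12 and Fap, are genes the study itself discusses. All 8 log2 fold changes were negative at 1 week and 6 of 8 at 3 weeks, when Acta2 had 0.04 and Tagln 0.19. edgeR called none of the 8 (4 at 1 week and 3 at 3 weeks had an unadjusted p under 0.05), and DESeq2 called Lrrc15 lower at 1 week and Fap and Adam12 lower at 3 weeks. Their summed level, without TMM scaling, was 727 to 1237 CPM in 1wk SBI and 399 to 764 CPM in 1wk SBI + Lac. It was 215 to 759 CPM in 3wk SBI and 159 to 245 CPM in 3wk SBI + Lac. The 10 fibroblast markers had medians of -0.09 and -0.30 and sums of 1064 to 1501 CPM in 1wk SBI, 1339 to 1713 CPM in 1wk SBI + Lac, 1733 to 2277 CPM in 3wk SBI, and 1451 to 2101 CPM in 3wk SBI + Lac. The 9 myofiber markers had medians of 0.49 and 0.29. Neither edgeR nor DESeq2 called a marker of either list, and at an unadjusted edgeR p under 0.05 there were 3 and 2 fibroblast markers and 6 and 1 myofiber markers at 1 and 3 weeks. Over the 14599 genes tested there were 2762 at 1 week and 3082 at 3 weeks.

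Among the other lists, 1 of 8 tendon and myotendinous junction markers was called at 3 weeks, Scx, a tendon transcription factor, which rose by 1.06 ± 0.24 on the log2 scale (edgeR adjusted p = 0.0417). Most of that list went the other way: 6 of the 8 log2 fold changes were negative at 3 weeks. The list's medians were -0.04 at 1 week and -0.60 at 3 weeks. Of 7 macrophage markers, Cd68 was called lower at 3 weeks, with a log2 fold change of -1.08 ± 0.20 (edgeR adjusted p = 0.0150), and the list's medians were -0.58 and -0.48. DESeq2 called both genes at 3 weeks as well, and at 1 week neither tool called a marker of either list, with 0 tendon and 2 macrophage markers at an unadjusted edgeR p under 0.05. Cd68 at 1 week was short of the fold cutoff alone in edgeR, with a log2 fold change of -0.96 ± 0.19 (edgeR adjusted p = 0.0417). Of the 7 endothelial, 6 smooth muscle, 7 Schwann cell, 8 neuromuscular junction, 5 adipocyte and 1 keratinocyte markers that passed the low-count filter, edgeR and DESeq2 called none in a lactation comparison. At an unadjusted edgeR p under 0.05 there were 1 smooth muscle and 4 neuromuscular junction markers at 1 week and 2 endothelial and 1 neuromuscular junction markers at 3 weeks, and 0 of the others. Over the 14599 genes tested there were 2762 at 1 week and 3082 at 3 weeks. Of the 8 mammary markers 4 passed the filter and edgeR called none, with 3 at an unadjusted p under 0.05 at each time. At each time 3 of these 4 had positive log2 fold changes, and Krt8 had -1.54 at 1 week and -1.34 at 3 weeks. DESeq2 called the milk protein genes Csn1s1 and Wap higher at 1 week and Csn2, Csn1s2a and Csn1s1 higher at 3 weeks. The part of macrophages, activated fibroblasts or tendon cells in the collagen differences was not tested.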

How the data were processed

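Poly(A) RNA of the pubocaudalis was sequenced from stranded libraries, paired end. The authors deposited counts per gene for the 1-week libraries, as whole numbers, and estimated counts with decimals for the 3-week libraries. The latter were rounded to whole numbers. Salmon is named in the submitters' processing notes, with no version, and which build and annotation were used is not given in the sources used here. The deposited table held counts only, and no row lacked a gene.

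The counts were filtered (filterByExpr), scaled by TMM and fitted in edgeR 4.0.16 (R 4.3.3, limma 3.58.1) with 1 mean per group over all 12 libraries. Quasi-likelihood tests gave the lactation effect at each time, the difference between these effects, and the change from 1 to 3 weeks in each arm. Each standard error is the log2 fold change over the square root of its F statistic. P-values were adjusted by Benjamini-Hochberg over all genes tested. Replicates are pools of 2 rats, so p-values measure the spread between pools. No libraries were copies of each other (chi-square per degree of freedom at least 22.1 within groups). DESeq2 1.42.0, other scalings, no filter, thinning to equal depth, a replicate block and leaving out each library were tried as alternatives. The scripts were tested on simulated data.

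The member genes and the lists of related and marker genes were chosen with earlier results of these data known. Values in every library are given for chains called in a lactation comparison and, in each class, for the 2 with the highest mean and the 2 with the largest 3-week log2 fold change. Other chains are given by ranges, counts or fold changes. List genes are named where edgeR or DESeq2 called them, and a few others for a direction against their list or for 0 counts. Depth was 10082734 to 75634391 counts per library. Intervals for counting error were not needed, since every comparison rests on replicate pools, and a library with 0 counts of a gene allows up to 3. Promoter sequences come from RefSeq, GRCr8, matched by symbol.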

Additional observations from a re-analysis of the deposited data

How the results depend on the processing

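The number of chains called at 1 week (1) was 3 with DESeq2 on all 12 libraries, 3 with DESeq2 and 2 with edgeR on the libraries compared, and 0 with the replicate block, and it ran from 0 to 7 as each library was left out (7 without 1wk SBI replicate 3). At 3 weeks (3) it was 7 with either DESeq2 fit and ran from 0 (without 3wk SBI replicate 3) to 4. From 1 to 3 weeks without lactation (5) it was 8 with DESeq2 and 1 with edgeR on the libraries compared and ran from 1 to 14. With lactation (2) it was 4 and 6 with DESeq2 on all and on the compared libraries, 4 with edgeR on the compared libraries, 1 with no filter and 1 after thinning, and 1 whichever library was left out. The cause of these shifts was not tested.

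Scaling by library totals, an alternative chosen after seeing the data, shifted the median of all genes by -0.25 at 1 week and -0.20 at 3 weeks, and the median of the chains at 1 week to -0.81. The chains' median from 1 to 3 weeks with lactation ran from -0.78 to -0.45 as libraries were left out. Signs of small fold changes turned. As libraries were left out, the log2 fold change at 1 week ran from -0.33 to 0.022 (without 1wk SBI + Lac replicate 1) for Col14a1, had highs of 0.081 (without 1wk SBI replicate 2) and 0.029 (without 1wk SBI + Lac replicate 2) for Col8a1, and ran from -0.036 (without 1wk SBI replicate 1) to 0.34 for Col8a2. At 3 weeks, leaving out 3wk SBI replicate 3 gave 0.090 for Col14a1 (lowest -0.65), 0.33 for Col22a1 (lowest -0.97), 0.058 for Col8a1 (lowest -0.36) and -0.16 for Col25a1. Col12a1 ran from -0.040 (without 3wk SBI replicate 1) to 0.60, Col25a1 from -0.40 (without 3wk SBI + Lac replicate 1) to 0.41 and Col28a1 from -0.14 (without 3wk SBI + Lac replicate 2) to 0.47. Library totals turned Col7a1 (-0.0057) and Col8a2 (-0.13) at 1 week and Col12a1 (-0.026) and Col25a1 (-0.11) at 3 weeks. Col25a1 was -0.059 with the replicate block and Col28a1 -0.044 after thinning.

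Replicate numbers are pool numbers and did not pair the samples: same-numbered pools of the compared groups had correlations of -0.233 to -0.0503 in their deviations, and the replicate block called 0 chains at 1 week. Col19a1 at 3 weeks was also lost with no filter (edgeR adjusted p = 0.0859) and after thinning (edgeR adjusted p = 0.0945).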
